A study of Mus musculus with 12 samples.

Results

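The comparison described here sets MC3T3 sc4 cells given SAHA for 2 h against MC3T3 sc4 cells given the solvent DMSO. It uses 8 of the 12 arrays of the series, 4 per group, and covers the probes that 4 or more of the 12 arrays detected at a p under 0.01. That rule kept 16431 of 45281 probes, and the 14136 of them with 1 gene symbol stood for 9153 genes. The other 4 arrays, of cells given SAHA for 6 h, entered the fit for the spread and are set beside a few genes at the end. SAHA (suberoylanilide hydroxamic acid, also called vorinostat) was used at 20 µM. All groups were of a subcloned mouse calvarial pre-osteoblast line, kept from confluence in osteogenic medium (beta-glycerophosphate at 4 mM, ascorbic acid at 50 µg/ml) and treated on day 4. They also went through a 40 min collagenase digestion in the presence of SAHA or vehicle before RNA was isolated, and no allele or transgene was involved. The labels do not give the time the control cells spent in DMSO, so a difference in exposure time cannot be told apart from the effect of SAHA. Whether arrays of 1 group stand for separate cultures is not given either, and the p-values therefore measure only the spread between these samples, which may be technical.

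Histone deacetylases remove acetyl groups from lysines of histones and of many other proteins, and SAHA blocks the zinc-dependent enzymes by binding the metal in their active site. Acetylated histone tails are bound by bromodomain proteins that recruit elongation factors, so acetylation can alter transcription within a short time and in both directions. In osteoblasts the response has been studied because deacetylases associate with transcription factors of bone formation, and the study's title refers to osteoblast maturation. The question of this comparison was which transcripts differed early in the exposure.

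Levels are given below as background-corrected, quantile-normalized log2 intensities of 1 probe per gene, and differences as log2 change of SAHA at 2 h minus DMSO, with the standard error of the limma fit after ±. A gene was said to rise or fall when its two-sided limma p, after Benjamini-Hochberg adjustment across the 9153 genes, was under 0.05. The arrays detected 14904 to 15982 probes after SAHA and 15610 to 16065 in DMSO, and array 8 of the SAHA group was the lowest. Before normalization, the median intensity of detected probes was 591 to 822 on the SAHA arrays and 578 to 667 on the DMSO arrays. Pairs of arrays differed across genes with an SD, on the log2 scale, of 0.54 to 0.57 between the groups, 0.16 to 0.24 within SAHA and 0.18 to 0.22 within DMSO. Of 12 osteoblast marker genes, 10 had a kept probe, and all 10 were detected on all 4 SAHA arrays, against 9 of them on all 4 DMSO arrays. Of 7 markers each, endothelial, neuronal and adipocyte genes had 0 kept probes with a symbol, epithelial genes 1, macrophage and blood genes 2, chondrocyte genes 3 and muscle genes 4.

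After 2 h of SAHA 58.6% of genes had changed, with 2549 genes higher (27.8%) and 2811 lower (30.7%). Most of these changes were small. The change was at least 1.5-fold for 897 of the rises and 995 of the falls. It was at least 2-fold for 6.92% of genes, 286 rises (3.12%) and 347 falls (3.79%). At 4-fold or more, 22 rises and 21 falls were left. The SAHA and DMSO arrays did not overlap for 53.4% of genes. Dim genes carried more of the large changes. Among the 2289 genes with the lowest mean level 103 rose and 124 fell at least 2-fold, and among the 2288 brightest 21 and 27 did, while the shares that passed the test were 26.0% and 28.1% in the dimmest and 24.4% and 26.9% in the brightest set. At the level of probes, 4490 of the 16431 rose and 4294 fell (53.5% in all), and of those without 1 symbol 48.1% changed. Where at least 2 probes of a gene changed, which was so for 1581 genes, the probes moved in opposite directions in 33 genes (2.09%).

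The balance of rises and falls depended on the scaling of the arrays. With every array scaled to the same median 2695 genes rose and 1573 fell, and without normalization between arrays 2531 rose and 942 fell. The median log2 change of all genes was -0.02 in the main setting, 0.10 with median scaling and 0.19 without normalization. Changes are therefore relative to the bulk of genes. Gene groups are described by how many members rose and fell, to be read against 27.8% and 30.7%. Without normalization the medians of 24 of the 59 groups turned from below 0 to above 0, and their medians in the main setting were -0.19 to -0.01. Beside those whose turn is given with their counts, these were cytosolic ribosomal protein genes, helix-loop-helix regulators, growth factor and receptor genes, histone lysine methyltransferases, demethylases, Polycomb genes, transcription elongation genes, DNA replication genes, G1 regulators, DNA repair genes, oxidative phosphorylation genes, mRNA decay genes, lipid synthesis genes, bone matrix genes, hormone receptor genes, chondrocyte genes, muscle genes and interferon-stimulated genes. Of the 118 counts of rises and falls given for gene groups, 54 moved by over 1.5 times without normalization and 40 with median scaling, against 9 in the authors' values and 10 there with the replicate block.

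**Figure D1:**
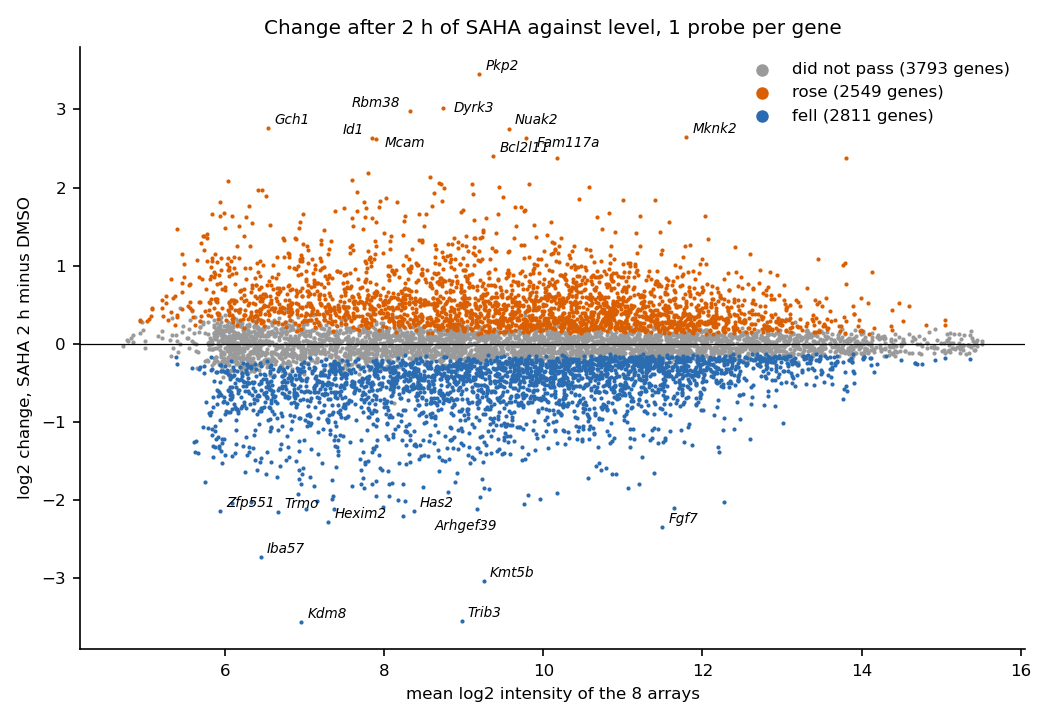
Log2 change of SAHA at 2 h minus DMSO (vertical axis) against the mean log2 intensity of the 8 arrays (horizontal axis) for the 9153 genes tested, 1 point per gene. Genes that rose are orange, genes that fell are blue and genes that did not pass are grey, and the 10 largest rises and falls among detected, fully separated genes, clone names left out, carry their names. For a gene undetected in a group the fitted value is drawn, which is not a bound. Pkp2 at 3.45 lies at the top and Kdm8 and Trib3 lie at the bottom.

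The largest rise was that of Pkp2, which encodes the desmosome plaque protein plakophilin 2. Its log2 intensities were 10.73, 10.996, 10.96 and 10.997 on the SAHA arrays and 7.32, 7.56, 7.48 and 7.52 on the DMSO arrays. Every SAHA array lay above every DMSO array, and the log2 change was 3.45 ± 0.07. The kinase genes Dyrk3, Nuak2 and Mknk2 were also among the 20 largest rises by fitted change, clone names left out. Dyrk3, a dual-specificity kinase that acts on condensates of RNA and protein, stood at 10.30, 10.19, 10.16 and 10.32 on the SAHA arrays, against 6.98, 7.42, 7.21 and 7.31 on the DMSO arrays, a log2 change of 3.02 ± 0.08. For Nuak2, a relative of the AMP-activated kinase, the levels were 10.86, 11.01, 10.92 and 10.98 after SAHA and 8.10, 8.15, 8.26 and 8.25 in DMSO (2.76 ± 0.06). In each of these genes every SAHA array lay above every DMSO array. Mknk2, a kinase that phosphorylates the cap-binding protein eIF4E, was the brightest of them, with 13.12, 13.05, 13.17 and 13.14 against 10.39, 10.44, 10.53 and 10.54 (2.64 ± 0.05). Rbm38, an RNA-binding protein gene of the p53 pathway, rose by 2.98 ± 0.08, Fam117a by 2.63 ± 0.08 and Mcam, an adhesion molecule gene of the immunoglobulin superfamily, by 2.63 ± 0.11. Gch1, the entry enzyme of tetrahydrobiopterin synthesis, was undetected on the DMSO arrays and at least 3.74-fold higher.

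The other genes of this set of 20 had varied roles. Slc9a3r1, a scaffold that ties membrane proteins to ezrin, rose by 2.38 ± 0.06, and Baiap2, an actin regulator that curves membranes, by 2.14 ± 0.10. Rab3ip, an exchange factor for Rab proteins of vesicle transport, rose by 2.07 ± 0.09 and Sgtb, a cochaperone, by 2.19 ± 0.08. The transcription factor genes were Nr6a1, an orphan nuclear receptor (2.05 ± 0.07), and Mxd1, whose product competes with Myc for its partner Max (2.01 ± 0.07). Usp2, a deubiquitinase, rose by 2.04 ± 0.06. Ccdc96 was detected on all SAHA arrays and on 0 DMSO arrays, and was at least 2.11-fold higher.

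Among genes detected in both groups, Trib3 and Kmt5b had the largest falls. Trib3, a pseudokinase gene induced by amino acid and ER stress, had levels of 7.04, 7.18, 7.31 and 7.25 after SAHA and 10.75, 10.78, 10.71 and 10.74 in DMSO (-3.55 ± 0.07). Kmt5b, which encodes a methyltransferase of histone H4 lysine 20, had 7.63, 7.83, 7.89 and 7.57 against 10.84, 10.74, 10.78 and 10.71 (-3.04 ± 0.08). Neither of these genes overlapped between the groups, and for both the other kept probes fell too. Kdm8, a member of the JmjC domain family, was undetected on all 4 SAHA arrays, so that its fall has only a bound, at least 6.30-fold lower. Fgf7, a growth factor that acts on epithelial cells, stood at 10.41, 10.22, 10.43 and 10.23 against 12.68, 12.58, 12.75 and 12.66, and Sp7, the osteoblast factor osterix, at 10.72, 10.51, 10.67 and 10.43 against 12.78, 12.67, 12.71 and 12.60. These falls, of 2.35 ± 0.07 and 2.10 ± 0.07 on the log2 scale, left both transcripts well detected at 2 h. Fzd1, a Wnt receptor gene, fell by 2.11 ± 0.11, Has2, a hyaluronan synthase, by 2.14 ± 0.10, and Arhgef39 by 2.12 ± 0.10. Dnm3os, a noncoding transcript of skeletal mesenchyme, fell by 2.05 ± 0.15.

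The other genes of the 20 largest falls by fitted change, clone names left out, also had varied roles. Hexim2, an inhibitor of the elongation kinase P-TEFb, fell by 2.28 ± 0.09 and was detected on 3 of 4 SAHA arrays. Taf9b, a TFIID subunit gene, fell by 2.01 ± 0.10, Alyref2, an adaptor of mRNA export, by 2.08 ± 0.12, and Gmeb2, a DNA-binding factor of the glucocorticoid response detected on 1 of 4 SAHA arrays, by 2.12 ± 0.13. The zinc-binding transcription factor genes Mzf1, Thap1 and Zfp551 went below detection after SAHA and were at least 2.40-fold, 2.04-fold and 1.91-fold lower. Of the RNA modification genes, Trmo, a tRNA methyltransferase, was also undetected after SAHA, at least 3.17-fold lower than in DMSO, and Dtwd2, another tRNA-modifying enzyme detected on 3 of 4 SAHA arrays, fell by 2.01 ± 0.11. Iba57, a factor of mitochondrial iron-sulfur cluster assembly, was undetected after SAHA and at least 3.33-fold lower.

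**Figure D2:**
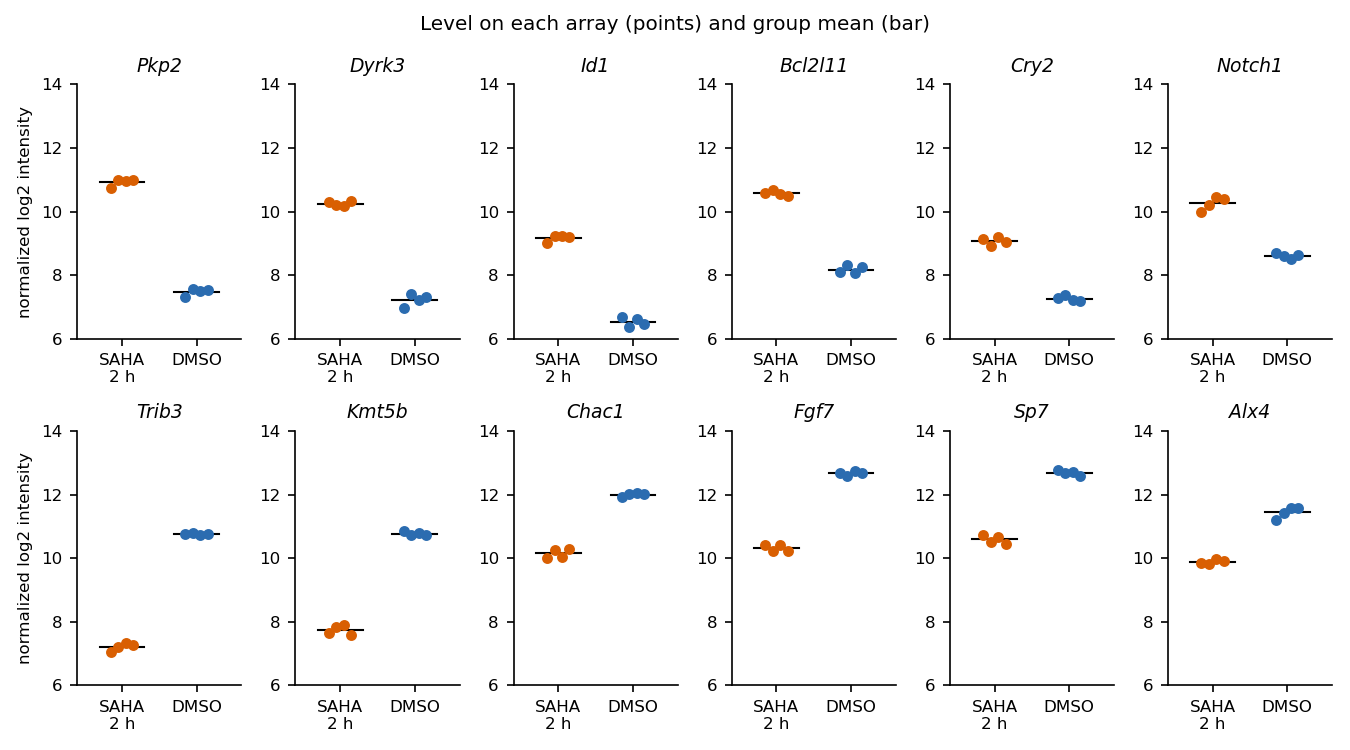
Log2 intensity of 12 genes on each array, with 1 panel per gene, the 4 SAHA arrays at 2 h on the left (orange) and the 4 DMSO arrays on the right (blue). Points are arrays, horizontal bars are group means, and the vertical axis is the normalized log2 intensity. The groups do not overlap in any of the 12 panels.

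Genes of zinc finger proteins fell more often than they rose. Of 184 measured genes with a numbered Zfp symbol, most of which encode DNA-binding proteins, 26 rose, 108 fell and 50 did not pass. Their median log2 change was -0.37, or -0.31 with undetected members at their bounds, against -0.02 for all genes. Without normalization between arrays 65 of them fell and 26 rose, with a median of -0.18 beside 0.19 for all genes. Falls of at least 2-fold by the fitted change were found for 24 of them. The levels of Zfp653 were 7.07, 6.84, 7.25 and 7.19 on the SAHA arrays and 9.01, 9.01, 8.97 and 9.14 on the DMSO arrays (-1.94 ± 0.09). Every SAHA array lay below every DMSO array. Zfp710, Zfp236 and Zfp746 fell by 1.53 ± 0.07, 1.48 ± 0.07 and 1.47 ± 0.08, although a dimmer probe of Zfp710 had -0.15 and did not pass. Zfp608 fell by 1.45 ± 0.06, and Zfp341, undetected after SAHA, was at least 2.19-fold lower. Zfp809, whose product silences retroviral DNA in mouse embryonic cells, fell by 1.00 ± 0.07. On the other side, Zfp654 rose by 0.99 ± 0.05, Zfp667 by 0.98 ± 0.14, and Zfp184, not detected in DMSO, was at least 1.89-fold higher. Of the 184 genes, 155 were detected on all 8 arrays.

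Most measured targets of the stress factor ATF4 also fell. ATF4 is the transcription factor of the integrated stress response, which raises amino acid synthesis and transport genes when translation initiation is limited. Of 27 measured genes of this response 3 rose, 19 fell and 5 did not pass. The median was -0.36. Atf4 itself had levels of 13.32, 13.29, 13.44 and 13.44 after SAHA and 13.83, 13.86, 13.93 and 13.93 in DMSO, a change of -0.51 ± 0.07. After Trib3, the largest falls were those of Herpud1, a factor of ER-associated degradation, at 11.29, 11.20, 11.27 and 11.29 against 13.38, 13.27, 13.24 and 13.25 (-2.02 ± 0.06), and of Chac1, which degrades glutathione, at 9.99, 10.26, 10.05 and 10.29 against 11.92, 12.004, 12.03 and 12.004 (-1.84 ± 0.09). Both were separated from DMSO on every array. The amino acid transporter gene Slc38a2 fell by 1.02 ± 0.09, the folate enzyme gene Mthfd2 by 1.01 ± 0.05, and Asns, the asparagine synthetase gene, by 0.52 ± 0.06. Cebpg and Atf5, bZIP factor genes of the response, fell by 0.75 ± 0.06 and 0.62 ± 0.07. The members that rose were Ddit3, which encodes the factor CHOP (0.99 ± 0.13), Ppp1r15a, which restores translation by dephosphorylating eIF2 alpha (0.59 ± 0.10), and Cebpb (0.29 ± 0.08). Without normalization 7 members fell and 3 rose, with a median of -0.13.

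Parts of the promoters of Trib3, Chac1 and Asns are shown because these members fell together and hold the letters of the C/EBP-ATF response element, to which ATF4 binds with C/EBP partners. The element was searched as TGATGNAA on both strands in the RefSeq windows of GRCm38.p6 that run from 250 bases before to 50 bases after each start, for genes with 1 window, and matches are in capitals.
Trib3 (chr2:152344029-152344058, minus strand, after the start): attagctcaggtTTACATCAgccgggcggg
Chac1 (chr2:119351022-119351101, plus strand, before the start): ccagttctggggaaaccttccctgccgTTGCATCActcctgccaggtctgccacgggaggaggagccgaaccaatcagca
Asns (chr6:7693210-7693289, minus strand, before the start): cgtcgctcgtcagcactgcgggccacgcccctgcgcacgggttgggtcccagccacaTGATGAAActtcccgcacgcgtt
The letters stood in the windows of 5 of the 18 members with 1 window (27.8%), which also included Herpud1 and Nupr1, and in 1.98% of the 5947 genes tested that had 1 window. All 5 of these genes fell at 2 h, but the fall of Nupr1, by 0.19 ± 0.07, no longer passed when array 1, 4, 5, 6 or 7 was left out and turned to 0.06 without normalization. Members without the letters fell too, among them Slc38a2, Mthfd2, Cebpg and Atf4. Ddit3, Ppp1r15a and Cebpb, which rose, also lacked them. Among genes with 1 window, the letters stood in 3.1% of those at least 2-fold higher and 2.3% of those at least 2-fold lower. Whether the letters go with a fall was not tested. A match of letters is a description of the window and does not show binding.

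Genes next to this response moved less uniformly. Of the 19 cytosolic aminoacyl-tRNA synthetase genes, several of which are ATF4 targets, 6 fell and 3 rose, with a median of -0.13 that turned to 0.10 without normalization. Aars fell by 0.60 ± 0.08 and Mars1 by 0.55 ± 0.08. Of 23 genes of ER chaperones and the unfolded protein response, 7 rose and 3 fell. Ern1, which encodes the ER stress sensor IRE1 alpha, rose by 1.36 ± 0.07, whereas Xbp1, whose mRNA IRE1 alpha splices, fell by 1.22 ± 0.06. The ER chaperone genes Hspa5 and Calr rose by 0.67 ± 0.12 and 0.58 ± 0.07. Among 25 cytosolic heat shock genes, 9 rose, 4 fell and 12 did not pass. Hsph1, a chaperone of the HSP110 family, rose by 0.74 ± 0.07, and Bag3, a cochaperone, fell by 0.42 ± 0.05. Hspa1b did not pass, at -0.22 ± 0.18, with detection on 1 of 4 SAHA arrays and 3 of 4 DMSO arrays.

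Every measured gene of the circadian clock passed the test. The clock is a feedback loop in which the products of Arntl and Clock drive the Per and Cry genes, whose products repress them in return. Of 14 measured clock genes 9 rose, 5 fell and 0 did not pass. Their median was 0.42. No single direction held for the positive or for the negative arm. Cry2, a repressor of the loop, was at 9.14, 8.91, 9.18 and 9.04 on the SAHA arrays and at 7.28, 7.38, 7.20 and 7.17 on the DMSO arrays (1.81 ± 0.09). Per1, the repressor gene that also answers directly to signals, was at 10.53, 10.50, 10.55 and 10.49 against 9.44, 9.36, 9.36 and 9.58 (1.08 ± 0.06). Every SAHA array was above every DMSO array for these genes. Ciart, another repressor, rose by 1.09 ± 0.08, Arntl by 0.79 ± 0.09, Dbp, an output factor, by 0.74 ± 0.09 and Per2 by 0.51 ± 0.08. Clock, the partner of Arntl, fell by 0.31 ± 0.09, and Nr1d1, which represses Arntl, fell by 0.63 ± 0.12. Bhlhe40, a repressor that responds to serum and hypoxia, fell by 0.69 ± 0.08. Without normalization 9 of the 14 rose and 2 fell.

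Immediate-early genes, which answer to growth factors and stress without new protein synthesis, and genes of the feedback on ERK signalling mostly rose. Of 22 immediate-early and AP-1 genes, 14 rose and 4 fell, with a median of 0.51, which was 0.44 with undetected members at their bounds. Detection on all 8 arrays held for 18 of the 22. A gene undetected in DMSO passed the filter only through SAHA arrays, so it could only be seen to rise. Fos stood at 9.39, 9.21, 9.44 and 8.98 after SAHA and at 7.63, 8.43, 7.54 and 7.35 in DMSO (1.51 ± 0.19). The DMSO arrays of Fos spread over more than 1 log2 unit, and the groups did not overlap. Atf3, a stress-induced bZIP gene, rose by 1.94 ± 0.13, Egr1 by 1.43 ± 0.12, Jund by 1.34 ± 0.12, Fosb by 1.31 ± 0.12, Klf2 by 0.87 ± 0.07 and Klf4 by 0.58 ± 0.13. The kinase gene Sik1 and the small Maf gene Mafk were undetected in DMSO and at least 1.38-fold and 2.73-fold higher. Myc, undetected after SAHA, was at least 1.55-fold lower, and Fosl2, an AP-1 gene active in osteoblasts, fell by 0.71 ± 0.07. Junb, Zfp36 and Egr3 did not pass, with values of -0.17 ± 0.11, -0.04 ± 0.19 and -0.09 ± 0.10.

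Of 15 genes of ERK feedback, 9 rose and 3 fell, with a median of 0.55. Dusp5 and Dusp14, phosphatase genes, rose by 2.10 ± 0.10 and 1.67 ± 0.06, and Errfi1, an inhibitor of the EGF receptor, by 1.63 ± 0.06. Etv5, an ETS factor downstream of FGF signals, rose by 1.15 ± 0.09, Dusp10 by 0.94 ± 0.11 and Dusp1 by 0.79 ± 0.08, whereas Dusp16 fell by 0.43 ± 0.06. Among 36 cytokine, chemokine and NF-kB genes, 15 rose and 8 fell. The rises included regulators of the pathways themselves. Nfkbiz, a nuclear modulator of NF-kB, was at 12.09, 12.36, 12.33 and 12.49 against 10.34, 10.27, 10.52 and 10.78 (1.84 ± 0.11), Nfkbie rose by 1.46 ± 0.09, Socs3, an inhibitor of cytokine receptor signalling, by 1.22 ± 0.10 and Tnfaip3 by 0.70 ± 0.17. Ptges, a prostaglandin E synthase, rose by 1.75 ± 0.07. Tnfrsf11b, which encodes osteoprotegerin, the decoy receptor that restrains osteoclasts, was at 10.66, 10.16, 10.32 and 10.10 after SAHA and 12.36, 11.92, 12.25 and 11.88 in DMSO (-1.79 ± 0.13). Il11, undetected after SAHA, was at least 1.29-fold lower.

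**Figure D3:**
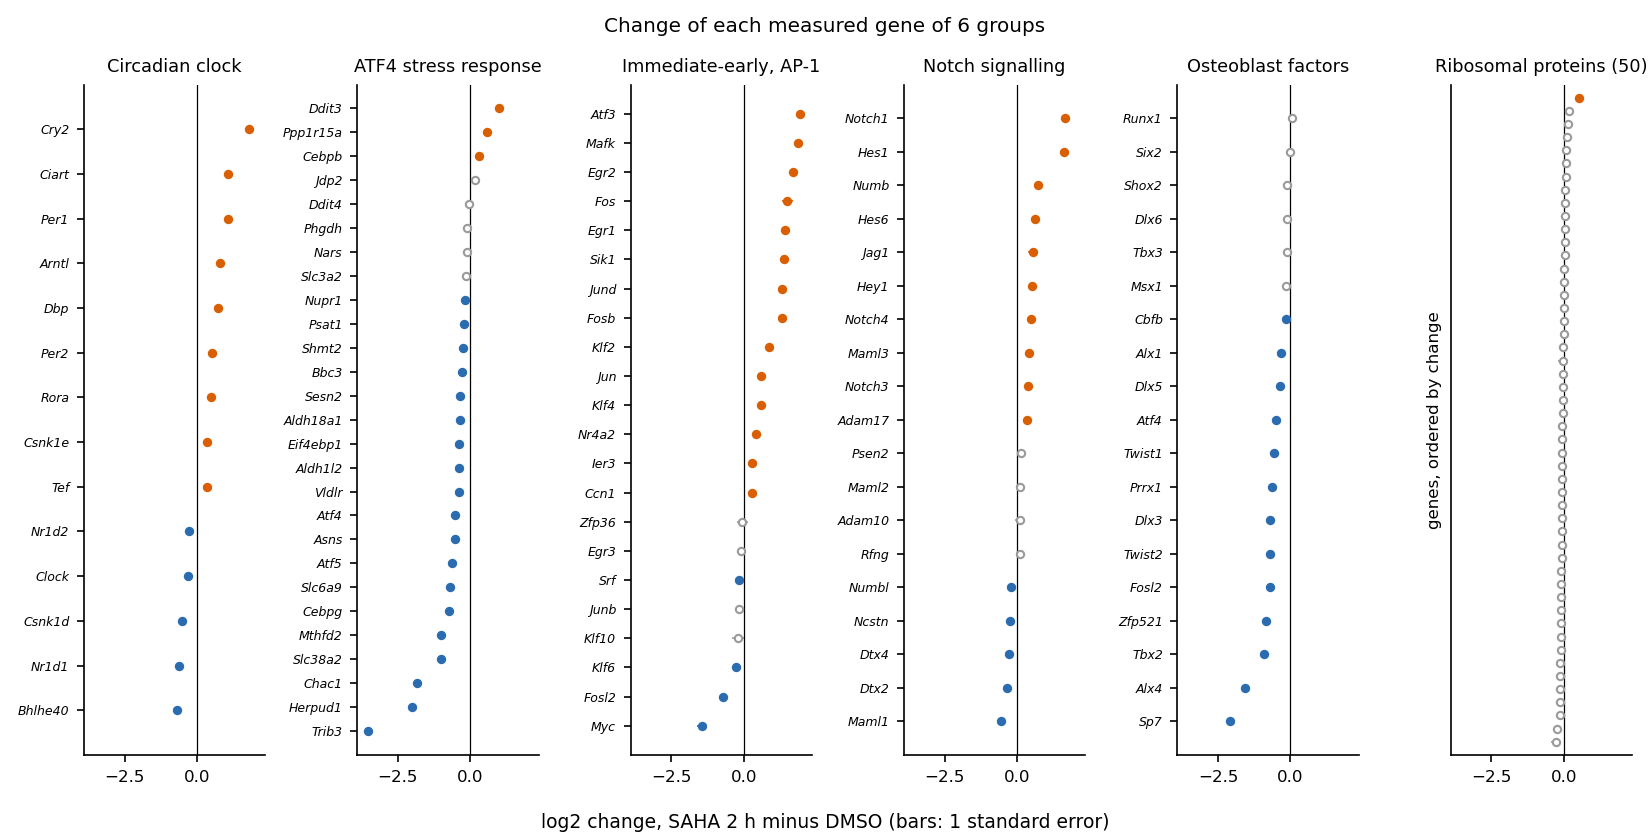
Log2 change of SAHA at 2 h minus DMSO for the measured members of 6 gene groups, 1 point per gene ordered by value, with error bars of 1 standard error of the limma fit. Filled orange and blue points passed the test upward and downward, open grey points did not, and the fitted value is drawn for genes undetected in a group. All 14 clock genes passed, Trib3 stands far below the other genes of the ATF4 response, and 1 of 50 ribosomal protein genes passed.

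Regulators of cell fate moved in both directions. Of 20 genes of helix-loop-helix factors and their inhibitors, 8 rose and 7 fell. Id1, a dominant inhibitor of such factors, was at 9.01, 9.22, 9.23 and 9.21 after SAHA and 6.68, 6.38, 6.63 and 6.45 in DMSO (2.63 ± 0.08). Its relative Id2 rose by 0.58 ± 0.09, Id4 fell by 1.04 ± 0.09 and Id3 had a change of -0.19 ± 0.10 that did not pass, although it did (-0.20) in the authors' values with the replicate block. The mesenchymal factor genes Twist1 and Twist2 fell by 0.56 ± 0.07 and 0.69 ± 0.11. Of 19 Notch pathway genes, 10 rose and 5 fell, with a median of 0.34. The receptor gene Notch1 had levels of 9.98, 10.21, 10.44 and 10.41 after SAHA and 8.68, 8.59, 8.49 and 8.62 in DMSO (1.66 ± 0.09), and its target Hes1 had 8.95, 9.04, 9.02 and 9.30 after SAHA and 7.41, 7.26, 7.51 and 7.61 in DMSO (1.63 ± 0.09). Both were higher on all 4 SAHA arrays. The ligand gene Jag1 rose by 0.54 ± 0.16, Numb, an inhibitor of the receptor, by 0.73 ± 0.06, and the coactivator gene Maml1 fell by 0.56 ± 0.08.

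Of 28 Wnt pathway genes, 7 rose and 10 fell, with a median of -0.11 that turned to 0.08 without normalization. The feedback inhibitors Nkd2 and Axin2 fell by 2.00 ± 0.09 and 1.43 ± 0.06, beside the receptor gene Fzd1. The ligand gene Wnt4 rose by 1.20 ± 0.08 and the coreceptor gene Lrp6 by 0.64 ± 0.08, while Ctnnb1, the beta-catenin gene, had a log2 change of 0.01 ± 0.07 on its brightest probe and 0.82 on another probe that passed. Of 18 BMP pathway genes, 8 fell and 3 rose, and the median of -0.16 turned to 0.05 without normalization. The antagonist genes Fst and Grem1 fell by 1.59 ± 0.06 and 0.69 ± 0.09, the ligand gene Bmp4 by 0.79 ± 0.05 and the receptor gene Acvr2b by 0.59 ± 0.07. For TGF-beta, 10 of 21 genes rose and 5 fell. The repressor of Smad proteins Ski rose by 1.05 ± 0.09 and the receptor gene Tgfbr1 by 0.76 ± 0.06, while Inhba, an activin subunit gene, fell by 1.10 ± 0.06 and the coreceptor gene Eng, undetected after SAHA, was at least 2.05-fold lower. Tgfb1 did not pass, at 0.16 ± 0.13. Of 23 growth factor and receptor genes, 7 rose and 9 fell. Pdgfra and Vegfc fell by 0.83 ± 0.05 and 0.95 ± 0.09, and Pdgfb and Hbegf rose by 0.91 ± 0.06 and 0.83 ± 0.13.

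Genes of PI3K and FoxO signalling, which couple growth factors to survival and metabolism, mostly rose. Of 27 measured genes of this pathway 17 rose, 4 fell and 6 did not pass. The median was 0.26. Pik3cb, a catalytic subunit gene, was at 8.18, 8.39, 8.44 and 8.42 on the SAHA arrays and at 6.85, 7.09, 6.82 and 6.65 on the DMSO arrays (1.504 ± 0.09). The adaptor gene Irs2 rose by 0.88 ± 0.11, the receptor genes Igf1r and Insr by 0.74 ± 0.07 and 0.48 ± 0.07, the kinase gene Pdpk1 by 0.76 ± 0.10, and the factor gene Foxo1 by 1.05 ± 0.07 and Foxo3 by 0.54 ± 0.07. Igf1r probes disagreed, since another kept probe of the gene fell by 1.03. Inppl1, a lipid phosphatase gene that opposes the pathway, fell by 0.75 ± 0.06, and the adaptor gene Irs1, undetected after SAHA, was at least 1.13-fold lower.

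Among 20 genes of the BCL2 family and cell death, 8 rose and 6 fell. Bcl2l11, which encodes the death-promoting protein Bim, was at 10.58, 10.68, 10.55 and 10.47 after SAHA and 8.08, 8.31, 8.05 and 8.24 in DMSO (2.40 ± 0.07). Bmf, another gene of the BH3-only class, rose by 1.16 ± 0.09, Apaf1, the scaffold of the apoptosome, by 0.94 ± 0.07, and Mcl1, a protective member, by 0.57 ± 0.06. Bcl2l2, also protective, fell by 0.93 ± 0.05, and Bak1, a pore-forming member, by 0.51 ± 0.16 with arrays that overlapped. A dimmer probe of Bcl2l2, detected on 2 of 4 DMSO arrays, had 0.63. Of 21 p53 targets 11 rose and 6 fell. The death receptor gene Fas rose by 1.14 ± 0.07 and Gadd45b by 0.80 ± 0.11, whereas Mdm2, the ubiquitin ligase of p53, fell by 0.74 ± 0.08 and Phlda3 by 0.48 ± 0.06.

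Chromatin genes moved in both directions. Of 28 histone lysine methyltransferase genes, 10 fell and 6 rose. Among the enzymes of H4 lysine 20, the fall of Kmt5b stood beside log2 changes of -0.03 ± 0.07 for Kmt5a and 0.10 ± 0.06 for Kmt5c, neither of which passed. Setd1a and Setd1b, of H3 lysine 4, fell by 0.59 ± 0.12 and 0.95 ± 0.09, and Kmt2c and Kmt2a, of the same mark, rose by 0.57 ± 0.07 and 0.45 ± 0.07. Of 22 demethylase family genes, 10 fell and 5 rose. Kdm5b, Kdm5a and Kdm1b, which act on H3 lysine 4, rose by 1.19 ± 0.08, 0.90 ± 0.16 and 0.91 ± 0.07, and Phf2 fell by 0.64 ± 0.09. Of 27 Polycomb genes 8 rose and 9 fell. The chromobox gene Cbx2 was at 8.49, 8.57, 8.32 and 8.65 after SAHA and 6.48, 7.05, 6.62 and 7.05 in DMSO (1.70 ± 0.13), while Pcgf1, Bmi1 and Asxl1 fell by 1.20 ± 0.06, 0.85 ± 0.11 and 1.34 ± 0.08. The enzyme gene Ezh2 and the core subunits Suz12 and Eed did not pass, with values of -0.13 ± 0.08, -0.04 ± 0.08 and 0.05 ± 0.09, but a second kept probe passed for Ezh2 (-0.77, detected on 1 of 4 SAHA arrays) and for Eed (0.55).

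The acetylation machinery itself was among the genes that fell. Of 18 acetyltransferase and bromodomain genes, 10 fell and 2 rose, with a median of -0.24, and 6 fell without normalization. The coactivator Ep300 was at 8.69, 8.49, 8.72 and 8.48 after SAHA and at 9.93, 9.38, 9.62 and 9.52 in DMSO (-1.02 ± 0.11). Its relative Crebbp fell by 0.79 ± 0.15, Kat5 and Kat7, of the MYST family, by 1.21 ± 0.09 and 0.88 ± 0.07, and Kat2a by 0.60 ± 0.11. Hat1, which acetylates newly made H4, rose by 0.24 ± 0.05. Among 31 genes of deacetylases and their complexes, 12 rose and 5 fell. The complex members Ing2 and Arid4a rose by 1.13 ± 0.08 and 0.93 ± 0.13, the deacetylase gene Hdac5 by 0.59 ± 0.08, and Rcor3 and Tle4 fell by 0.72 ± 0.11 and 0.70 ± 0.08. Remodelling genes gave 16 falls and 5 rises in 38, a median of -0.12 that turned to 0.09 without normalization, and 8 rose in the authors' values with the replicate block. Bptf fell by 0.83 ± 0.08, Arid1a by 0.57 ± 0.09, and Chd4 rose by 0.49 ± 0.08.

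Genes of transcription elongation were split between rises and falls. Of 28, 9 rose and 9 fell. In the PAF complex, which travels with RNA polymerase II, Ctr9 was at 9.41, 9.42, 9.51 and 9.61 after SAHA and 8.28, 8.13, 8.13 and 8.29 in DMSO (1.28 ± 0.08), Paf1 rose by 1.18 ± 0.08 and Rtf1 by 1.08 ± 0.07. The other member Cdc73 fell by 0.59 ± 0.09, and Leo1 did not pass, at 0.01 ± 0.07. Of the pause factor NELF, Nelfa and Nelfb fell by 0.81 ± 0.05 and 0.38 ± 0.07. Of the complex that holds P-TEFb inactive, Larp7 fell by 0.56 ± 0.15 with overlapping arrays and Mepce, detected on 3 of 4 SAHA arrays, by 0.81 ± 0.14, while Hexim1 rose by 0.55 ± 0.06 and Cdk9, the kinase of P-TEFb, did not pass, at 0.01 ± 0.08. Ell, an elongation factor, rose by 0.99 ± 0.06.

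Replication-dependent histone genes rose and did not fall. Of 43 measured genes, H1 genes included, 32 rose, 0 fell and 11 did not pass, with a median of 0.52. Detection on all 8 arrays held for 37 of the 43, and a gene undetected in DMSO could only be seen to rise. H1f2, the linker histone gene with the largest change, was at 15.14, 15.06, 15.01 and 14.76 after SAHA and 12.62, 12.61, 12.67 and 12.54 in DMSO (2.38 ± 0.08). The H2A gene H2ac6 was detected after SAHA only, at a level at least 1.58-fold higher than in DMSO. H2bc15 and H3c13 rose by 0.91 ± 0.09 and 0.95 ± 0.09. These genes are near-copies of each other, so that their probes may share signal. Most of their transcripts lack a poly(A) tail while the labelling started from oligo(dT), and which forms were measured was not tested. The 100 bases before the start of H1f2, H3c10 and H2bc14 are shown as examples of this promoter class, with CCAAT (or ATTGG on this strand) and TATAAA in capitals. Only H3c10 among them holds TATAAA, and the whole windows of H1f2 and H2bc14 lack it.
H1f2 (chr13:23738707-23738806, plus strand): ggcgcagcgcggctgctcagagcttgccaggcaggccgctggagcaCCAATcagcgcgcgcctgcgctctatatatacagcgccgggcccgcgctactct
H3c10 (chr13:21717528-21717627, plus strand): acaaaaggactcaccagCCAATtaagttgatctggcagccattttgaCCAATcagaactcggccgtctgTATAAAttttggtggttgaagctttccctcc
H2bc14 (chr13:21721944-21722043, plus strand): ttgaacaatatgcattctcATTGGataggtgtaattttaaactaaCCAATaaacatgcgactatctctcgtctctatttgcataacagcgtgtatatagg
In the whole windows of GRCm38.p6, CCAAT stood on either strand in 31 of 38 histone genes with 1 window (81.6%) and in 40.1% of all genes tested with 1 window. TATAAA stood in 63.2% of the histone genes and in 7.01% of all.

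The same search was made over the genes with at least 2-fold changes. The median share of G and C in the window was 65.0% for the 193 genes at least 2-fold higher that had 1 window, 58.5% for the 216 at least 2-fold lower and 61.7% for all. The GC box GGGCGG stood in 78.2%, 56.5% and 69.0% of these windows. TATAAA stood in 7.77% of the genes that were higher and 14.4% of those that were lower. These shares are descriptions and were not tested, and the GC box is itself made of G and C.

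Genes of mitosis mostly fell, and genes of the other cell cycle phases moved both ways. Of 27 genes of G2 and mitosis, 21 fell and 1 rose, with a median of -0.41, while 8 fell without normalization. Plk1, a mitotic kinase gene, was at 10.89, 10.95, 10.97 and 10.84 after SAHA and 12.07, 12.26, 11.97 and 12.26 in DMSO (-1.23 ± 0.09). Kif11, a spindle motor gene, fell by 0.70 ± 0.07 and Cdk1 by 0.59 ± 0.08. Of 38 genes of replication and nucleotide synthesis, 12 fell and 8 rose. The deoxynucleotide genes Rrm2 and Tk1 fell by 0.97 ± 0.13 and 0.77 ± 0.06, and the origin genes Orc1, Orc6 and Cdc6 rose by 0.86 ± 0.08, 0.76 ± 0.06 and 0.40 ± 0.08. Of 20 G1 regulators 8 rose and 6 fell. E2f2 rose by 1.47 ± 0.10, the cyclin gene Ccne1 by 0.62 ± 0.08, and Cdkn1b, an inhibitor of its kinase, fell by 0.25 ± 0.07. Of 46 DNA repair genes, 17 rose and 18 fell. Fanca and Fancm of the Fanconi pathway rose by 1.09 ± 0.11 and 1.04 ± 0.06, Xrcc3 by 1.01 ± 0.12 and Xpc by 0.95 ± 0.07, and Rad50, Lig3 and Rad51c fell by 0.90 ± 0.06, 0.86 ± 0.06 and 0.78 ± 0.07.

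Genes of the ribosome, of respiration and of the proteasome rarely passed the test after quantile normalization, but the count for the ribosome depended on the normalization. Of 50 cytosolic ribosomal protein genes, 1 rose, which was Rps15a (0.54 ± 0.06), and 0 fell. Of 61 genes of oxidative phosphorylation 3 rose and 4 fell, and of 34 proteasome genes 5 rose and 2 fell. In the authors' values 24 of the 50 cytosolic ribosomal protein genes fell and 1 rose, with a median of -0.18, and 26 fell with the replicate block. Falls of oxidative phosphorylation genes numbered 8 in the authors' values and 14 with the block. Proteasome genes gave 3 rises in the authors' values and 4 falls with the block. When array 8 of SAHA was left out, 11 genes of oxidative phosphorylation fell. The medians of these groups, -0.04, -0.03 and 0.03, lay close to the median of all genes in the main setting. Of 70 mitochondrial ribosomal protein genes, 31 fell and 10 rose, but without normalization 3 fell and 10 rose, and the median of -0.13 turned to 0.10. Mrpl51 and Mrpl46 fell by 0.81 ± 0.09 and 0.73 ± 0.06, and Mrpl49 rose by 1.15 ± 0.07.

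The machinery of transcription and RNA processing moved in more members. Of 48 Mediator and general factor genes, 17 rose and 20 fell. Med11 and Med6 fell by 0.94 ± 0.11 and 0.94 ± 0.06, and Taf3, Med22 and Med31 rose by 0.85 ± 0.06, 0.74 ± 0.07 and 0.73 ± 0.09. Of 19 polymerase subunit genes, 9 rose and 3 fell, with Polr2e of all 3 polymerases higher by 0.59 ± 0.09. Splicing factor genes gave 23 falls and 10 rises in 61, and their median of -0.08 turned to 0.12 without normalization. Rbm5, a regulator of alternative splicing, fell by 1.09 ± 0.05, and Srsf6 and Srsf4 by 0.85 ± 0.07 and 0.78 ± 0.05. In mRNA decay, 13 of 41 genes fell and 9 rose. The decapping genes Dcp1b and Dcp1a fell by 1.23 ± 0.06 and 0.71 ± 0.07, and the deadenylation genes Cnot2, Cnot3 and Cnot7 by 0.82 ± 0.05, 0.68 ± 0.09 and 0.68 ± 0.06. Tob1, which recruits the deadenylase, rose by 0.87 ± 0.10. Of 46 ribosome biogenesis genes 15 rose and 11 fell, with Rrp9 and Utp4 of the small subunit processome higher by 1.05 ± 0.07 and 0.95 ± 0.07.

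**Figure D4:**
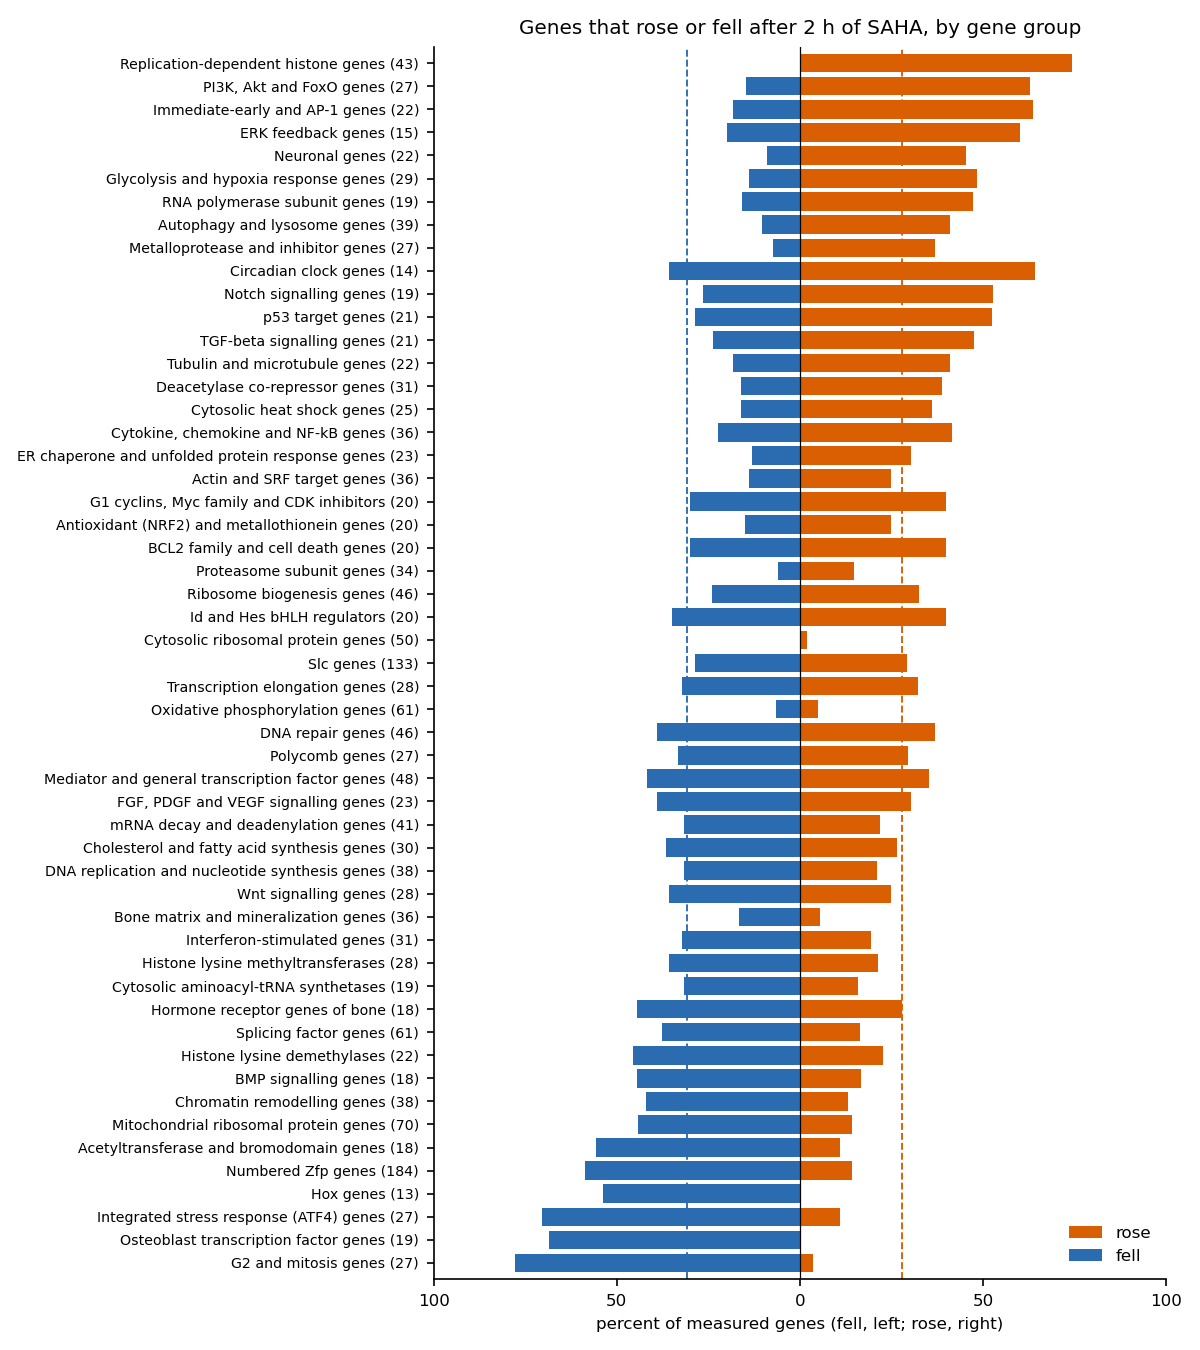
Share of the measured genes of each group that rose (orange, to the right) or fell (blue, to the left) after 2 h of SAHA relative to DMSO, in percent, for groups with at least 13 measured genes, the number of which stands beside the name. Dashed lines mark the shares of all genes tested, 27.8% that rose and 30.7% that fell. Histone, clock and immediate-early genes reach farthest to the right, mitotic, ATF4 and osteoblast factor genes farthest to the left, and cytosolic ribosomal protein genes have almost no bar in this normalization.

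Genes of glycolysis and of autophagy rose more often than they fell. Of 29 genes of glycolysis and the hypoxia response, 14 rose and 4 fell. Ankrd37, a hypoxia target not detected in DMSO, was at least 2.25-fold higher, Pdk4, which restrains pyruvate oxidation, rose by 0.95 ± 0.08, Ndrg1 by 0.73 ± 0.07, the glucose transporter gene Slc2a1 by 0.55 ± 0.06 and the hexokinase gene Hk1 by 0.58 ± 0.12. Egln2, an oxygen sensor that marks HIF for degradation, fell by 0.82 ± 0.11. Of 39 autophagy and lysosome genes, 16 rose and 4 fell, and in the authors' values 16 rose and 7 fell. The initiating kinase gene Ulk1 was at 10.44, 10.34, 10.28 and 10.51 after SAHA and 9.26, 9.13, 9.003 and 9.14 in DMSO (1.26 ± 0.07), and the conjugation genes Atg12, Gabarapl2 and Map1lc3b rose by 1.25 ± 0.07, 0.78 ± 0.12 and 0.58 ± 0.09. Pnpla2, the adipose triglyceride lipase, rose by 1.86 ± 0.07. Of 30 lipid synthesis genes 8 rose and 11 fell, Insig1 by 0.57 ± 0.10 and Lss by 0.42 ± 0.06.

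Of 133 solute carrier genes, 39 rose and 38 fell, shares close to those of all genes. The mitochondrial carrier genes Slc25a42 (detected on 3 of 4 DMSO arrays), Slc25a29, Slc25a30 and Slc25a37, which were picked for their values, rose by 1.66 ± 0.09, 1.32 ± 0.07, 1.26 ± 0.09 and 1.13 ± 0.07, but Slc25a45 fell by 1.19 ± 0.06. Slc2a10, a sugar transporter gene, fell by 1.84 ± 0.10. Among 20 antioxidant genes, 5 rose and 3 fell, with 5 falls in the authors' values and 7 with the block. Keap1, the inhibitor of NRF2, fell by 1.08 ± 0.07, while Gclc, of glutathione synthesis, rose by 0.67 ± 0.12.

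Genes of osteoblast transcription factors mostly fell. Of 19 regulators of skeletal cell fate, 13 fell, 0 rose and 6 did not pass. Their median was -0.51, and -0.37 with undetected members at their bounds. Detection on all 8 arrays held for 17 of the 19. Without normalization between arrays 7 of the 19 fell and 0 rose, with a median of -0.27. Alx4, a factor of the skull vault, was at 9.85, 9.82, 9.96 and 9.91 after SAHA and 11.21, 11.43, 11.57 and 11.59 in DMSO (-1.56 ± 0.09). Dlx3 fell by 0.69 ± 0.08 and Prrx1 by 0.65 ± 0.07, while Runx1, Msx1 and Six2 did not pass, with values of 0.05 ± 0.12, -0.15 ± 0.07 and -0.03 ± 0.07. Of 13 Hox genes and cofactors 7 fell and 0 rose. Detection on all 8 arrays held for 8 of the 13. A gene undetected after 2 h of SAHA passed the filter only through other arrays, so it was open to a fall rather than a rise. Hoxc6, detected on 2 of 4 SAHA arrays, fell by 1.38 ± 0.14, Hoxa7 by 1.23 ± 0.15 and Hoxb5 by 0.95 ± 0.14. Of 36 genes of bone matrix and mineral, 28 did not pass, 6 fell and 2 rose. In the authors' values 14 of them fell, with a median of -0.12 beside -0.04 in the main setting, and 15 fell with the replicate block. Alpl, the alkaline phosphatase gene, stood at 8.87, 8.95, 8.96 and 9.31 after SAHA and 9.08, 9.16, 9.20 and 9.27 in DMSO, and the groups overlapped (log2 change -0.15 ± 0.10). Without array 8 of SAHA it passed, at -0.25. Bglap (osteocalcin), Ibsp (bone sialoprotein), Sparc (osteonectin) and Col1a1 did not pass, with values of 0.03 ± 0.10, 0.19 ± 0.14, -0.02 ± 0.07 and 0.01 ± 0.06. In the authors' values Sparc and Col1a1 fell, by 0.31 and 0.25, and with the replicate block Ibsp also passed (0.17). The members that fell most were Ptprv, a phosphatase gene of osteoblasts (-1.29 ± 0.11), and the channel gene Panx3 (-0.74 ± 0.07). A value that does not pass does not show that a transcript was unaffected.

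Of 18 hormone receptor genes, 5 rose and 8 fell. Pth1r, the receptor of parathyroid hormone, fell by 0.62 ± 0.08, Rarg by 0.78 ± 0.13, Nr2f2 by 0.93 ± 0.13 and Gper1, a membrane receptor of estrogen, by 1.39 ± 0.07, while Vdr, the vitamin D receptor gene, rose by 0.53 ± 0.06. Protease genes gave 10 rises and 2 falls in 27. The inhibitor gene Timp3 rose by 1.08 ± 0.07 on its brightest probe, the plasminogen activator genes Plau and Plat by 1.02 ± 0.09 and 0.92 ± 0.06, and Adamts4, an aggrecanase, fell by 1.35 ± 0.09. Mmp13 and Mmp2 did not pass, with values of -0.18 ± 0.15 and 0.11 ± 0.07.

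Genes of the cytoskeleton moved both ways. Of 36 actin and SRF target genes 9 rose, 5 fell and 22 did not pass. In the authors' values 10 rose and 10 fell, and 12 fell with the replicate block. Pxn, the focal adhesion gene paxillin, was at 8.72, 8.81, 8.43 and 8.62 against 7.07, 6.82, 6.73 and 7.02 (1.74 ± 0.10), and Ankrd1 fell by 1.30 ± 0.08. Of 22 microtubule genes 9 rose, among them the kinesin gene Kif5c (1.38 ± 0.07) and the tubulin gene Tubb2b (0.90 ± 0.07), and 4 fell, which was 7 in the authors' values.

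Genes usually read as neuronal were among those that rose. Of 59 listed genes, 22 were measured, and 10 of these rose and 2 fell. Detection on all 8 arrays held for 15 of the 22. The filter keeps a gene undetected in DMSO only through the SAHA arrays, so such a gene could only be seen to rise. The synaptic genes Stx1a and Syn1 rose by 0.92 ± 0.08 and 0.74 ± 0.06, Eno2 by 0.67 ± 0.11, and the synaptotagmin gene Syt4 fell by 1.81 ± 0.11. Itpka, an inositol phosphate kinase gene not detected in DMSO, was at least 1.90-fold higher. None of 7 defining neuronal markers (Snap25, Syp, Syt1, Rbfox3, Nefl, Stmn2 and Elavl4) had a kept probe with a symbol. The summed linear level of the 3 measured chondrocyte markers was 3334 to 3802 on the SAHA arrays and 3831 to 4308 on the DMSO arrays, and that of the 4 muscle markers was 307 to 352 on the SAHA arrays and 390 to 422 on the DMSO arrays. The 2 macrophage and blood markers summed to 267 to 292 after SAHA and 297 to 372 in DMSO, and the 10 osteoblast markers to 117862 to 123101 after SAHA and 120445 to 137268 in DMSO. Of the 4 muscle markers, 1 was detected on all 4 SAHA arrays and 2 on all 4 DMSO arrays. Of the macrophage and blood markers, 1 was so detected in each group. Of the 3 chondrocyte markers, 2 were so detected after SAHA and 3 in DMSO. The muscle, the macrophage and blood, and the chondrocyte sums therefore include values near the detection limit. Over longer lists, 0 of 7 chondrocyte genes rose and 3 fell, as did 1 and 3 of 9 muscle genes and 0 and 2 of 6 macrophage, osteoclast and blood genes. Of 7 osteocyte genes 2 rose and 1 fell, of 8 epithelial junction genes 4 rose, Pkp2 among them, and 1 fell, and of 31 interferon-stimulated genes 6 rose and 10 fell. The part of a change in cell numbers in these values was not tested, and fewer cells of a type cannot be told apart from less RNA per cell in such cultures.

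Of 11 housekeeping genes, 1 rose, the transferrin receptor gene Tfrc (0.59 ± 0.09), and 1 fell, Ywhaz by 0.33 ± 0.07. In the authors' values 3 fell, and 4 with the replicate block. Actb stood at 15.45, 15.38, 15.29 and 15.31 after SAHA and 15.44, 15.38, 15.33 and 15.43 in DMSO, and Tbp at 9.63, 9.48, 9.57 and 9.54 after SAHA and 9.50, 9.47, 9.57 and 9.58 in DMSO. Their log2 changes of -0.04 ± 0.05 and 0.02 ± 0.06 and that of Gapdh (0.10 ± 0.05) did not pass, and the groups overlapped for Actb and Tbp. The probes of Actb disagreed, because 2 of its 4 other kept probes rose, by 1.26 and 1.21, while in the authors' values the gene fell by 0.34.

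Detection itself switched for a small set of probes. On all 4 SAHA arrays and 0 DMSO arrays 129 kept probes were detected, 101 of them with 1 symbol, and 181 were detected on all 4 DMSO arrays and 0 SAHA arrays, 150 with 1 symbol. Such probes are dim, and a fold can be given only as a bound. Among the genes gained by the probe that stands for them were Rara, a retinoic acid receptor gene, at least 1.29-fold higher, Il6ra, the interleukin-6 receptor gene, at least 1.40-fold, and Baz2a, of nucleolar chromatin, at least 1.28-fold. Among those lost were Ino80, the ATPase of a remodelling complex, at least 1.71-fold lower, Srebf1, the lipid synthesis regulator, at least 1.14-fold, and Tbx2, a T-box factor gene, at least 1.29-fold. For genes with several kept probes the brightest one stands for the gene, and for Gch1, Zfp667, Asns, Cebpg, Mrpl51, Insig1, Timp3 and Tubb2b a dimmer kept probe had a smaller change of the same sign, which passed for Gch1 and did not pass for the others.

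The SAHA arrays taken at 6 h place some of these genes in time. They share the DMSO arrays with the 2 h comparison, so the change between the SAHA groups was tested directly, again with limma over all genes. Chac1 stood at a log2 change of -1.84 at 2 h and -0.17 at 6 h relative to DMSO, with 1.68 between 2 h and 6 h (adjusted p = 3.42e-09). Trib3 was at -3.55 and -1.88 (1.67, adjusted p = 3.85e-10), so both transcripts were higher at 6 h than at 2 h of SAHA. Herpud1, of the same group, was at -2.02 and -2.07, a difference of -0.05 that did not pass. Sp7 had -2.10 at 2 h and -4.23 at 6 h, and Fgf7 had -2.35 at 2 h and -4.35 at 6 h, so that both were lower still at the later time (adjusted p = 8.24e-11 and 1.37e-10). Among the rises, Pkp2 was at 3.45 and 3.42, Dusp5 at 2.10 and 1.42, and Per1 at 1.08 and 0.48. The values of Dusp5 and Per1 were lower at 6 h than at 2 h (adjusted p = 3.38e-05 and 1.26e-06), and the difference for Pkp2 did not pass. Per2 and the decapping gene Dcp1b changed in opposite directions at the 2 times, Per2 with 0.51 at 2 h and -0.28 at 6 h and Dcp1b with -1.23 and 0.42.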

How the data were processed

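Per the labels' protocols, RNA was prepared after collagenase digestion and 200 ng was labelled for Illumina mouse arrays. The authors deposited intensities per probe and array, which the file headers call non-normalized, with a detection p-value per probe, and a second table of normalized linear intensities whose method is not given in the sources used here. The deposited intensities were corrected with limma's neqc (limma 3.58.1, R 4.3.3), which fits background from the detection p-values, adds an offset of 16, quantile-normalizes and takes log2. Probes with a detection p under 0.01 on at least 4 of the 12 arrays were kept, each gene was represented by its probe of highest mean, and 1 model per gene was fitted over the 12 arrays and 3 groups, without a replicate block. Tests are limma's moderated two-sided ones, adjusted by Benjamini-Hochberg. Probe genes come from GEO's platform annotation with symbols updated through RefSeq. Of 45281 probes, 34885 had 1 symbol, 18 had several and 10378 had none. For a gene undetected on every array of a group, the fold is a bound against the lowest signal detected on each array. The number of arrays limits the precision.

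Replicate numbers stand only in the titles of the normalized table. Same-numbered SAHA and DMSO samples deviated together there (correlations 0.181 to 0.357 over the 4 numbers, each best with its own number), so the numbers were taken to pair the samples, and the fit with that block was an alternative. Named are the 20 largest fitted rises and falls among fully separated, detected genes that have more than a clone name. Some of the members with the smallest p in gene groups and some of the genes fixed by name are also named. Others of both kinds were left out. Further members whose level is described were chosen after their values were seen. A further gene group is not reported here. The members and lists were chosen with earlier results of these data known. Alternatives changed background correction, offset, normalization, detection filter, choice of probe, prior, array weights, threshold and arrays. Probes without 1 symbol were not tested by gene.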

Additional observations from a re-analysis of the deposited data

Results flagged for a closer look

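Among the genes named, 24 of 610 sets of 4 arrays (3.93%) held an array whose gap to the nearest of the others divided by the range was above Dixon's critical value, where chance gives about 1 in 20. Values are log2 intensities, with the nearest array of the group after them. On SAHA array 5 these were Gadd45b (11.66, next 11.87), Id1 (9.01, next 9.21), Mdm2 (10.87, next 11.05), Panx3 (12.21, next 12.03) and Pkp2 (10.73, next 10.96). On SAHA array 6 these were Apaf1 (11.82, next 11.92), Ell (11.66, next 11.57), H3c13 (12.98, next 13.26) and Rtf1 (7.57, next 7.46). On SAHA array 7 these were Bmf (7.94, next 8.22) and Pcgf1 (10.23, next 10.30). On SAHA array 8 these were Adamts4 (8.94, next 9.29), Bak1 (7.51, next 6.88), H2ac6 (6.30, next 6.75), Itpka (7.23, next 6.85), Mcam (9.43, next 9.15) and Nupr1 (13.51, next 13.34). On DMSO array 1 these were Ezh2 (9.48, next 9.15), Keap1 (11.06, next 11.20) and Ptges (8.60, next 8.80). On DMSO array 2 it was Nkd2 (9.36, next 9.13). On DMSO array 4 these were Ankrd1 (9.19, next 9.01), Syn1 (9.84, next 9.65) and Tfrc (9.01, next 9.29).

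Dcp1b and Per2 changed in opposite directions at 2 h and 6 h of SAHA. Dcp1b had log2 changes of -1.23 at 2 h and 0.42 at 6 h, and Per2 of 0.51 at 2 h and -0.28 at 6 h. Both differences between the times passed limma's test over all genes (adjusted p = 1.69e-10 for Dcp1b and 1.38e-06 for Per2). Probes without 1 gene symbol, which the gene comparison does not use, also moved, and 1105 of 2295 kept ones (48.1%) changed at 2 h.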

How the results depend on the processing

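Of 305 named genes, 262 could be tested under all 21 alternatives, and 228 of these kept their call (rose, fell or not passed) under each. The sign of a value that passed in neither setting was not compared. The other 43 have no value where probes had to be detected on all 12 arrays. Of these, 42 kept their call under the other 20. Without normalization between arrays 3473 genes changed and 942 fell, with median scaling 4268 changed and 1573 fell, and the cause of the difference between scalings was not tested. The count of genes changed was 5505 in the authors' values and 5877 with the replicate numbers as a block, 4363 to 5549 under the remaining settings and 4975 to 5224 when 1 array was left out. Rises were 2369 to 2479 and falls 2606 to 2745 without 1 array. Probes changed numbered 8118 to 8557 without 1 array and 6914 at an adjusted p under 0.01. In the authors' values with the block, the named genes whose calls differed from the main setting were Actb, Col1a1, Ibsp, Id3 and Sparc. Of these, Actb, Col1a1 and Sparc also passed in the authors' values without the block, and Ibsp and Id3 passed only with it. Turns in sign were counted only for genes that passed in the main setting or in the alternative. These were Nupr1 without normalization (0.0559), Actb with the mean of its probes (0.52), and Col1a1 in the authors' values (-0.25) and with the block (-0.25). With 1 array left out, 1 to 6 of 118 group counts moved by over 1.5 times, with the greatest difference in number for the falls of oxidative phosphorylation genes. Dim probes near the detection limit, brightest probes near the top of the scale, 4 arrays a group and an unstated source of replicates limit all values.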
